A study of Homo sapiens with 6 samples.

Results

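The transcripts of 10 genes for lipases and lipid droplet proteins, LIPG, LIPA, PNPLA2, ABHD5, LIPE, MGLL, PLIN2, PLIN3, DGAT1 and DGAT2, were described in LX-2 cells, an established human line derived from hepatic stellate cells. The genes were found by their symbols and made up 10 of the 16907 gene symbols with values. They had been chosen by function around LIPG, which had itself been picked for its low log2 fold change in the same libraries, so all values of the 10 genes are given as a description, and how many of them a fit over all genes called is counted without support being drawn from it. RNA was sequenced from 3 libraries of cells that had received 20 nM of a control small interfering RNA for 72 h (siControl) and from 3 that had received 20 nM of one against OGT for the same time (siOGT). OGT is the enzyme that adds O-linked N-acetylglucosamine to nuclear and cytoplasmic proteins. All 6 libraries came from this 1 cell line and from cells treated with the same transfection reagent, so an untransfected group is not part of the comparison. The labels number the biological replicates from 1 to 3 in each group, and libraries of the same number were compared as a pair. Levels are given in CPM, the counts relative to the library total after scaling between libraries with TMM factors, a correction for differences in composition.

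Lipid droplets store triglycerides and cholesteryl esters under a coat of proteins of the perilipin family. Stored triglyceride is built by diacylglycerol acyltransferases and taken apart in steps by lipases in the cytosol or, after delivery to lysosomes, by an acid lipase, while other lipases are secreted and act on lipoproteins outside the cell. Quiescent hepatic stellate cells are known for large droplets rich in retinyl esters, which shrink when the cells turn into myofibroblasts.

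The reference bases upstream of 3 of these genes are shown because LIPG, LIPE and ABHD5 were genes whose CPM ranges did not overlap between the groups and for which RefSeq start sites were at hand. Each run holds the 250 bases that end just before the start site of the main transcript, 5′ to 3′ on the strand of the gene, from RefSeq on GRCh38.p14, and capitals mark matches to the motifs listed after them. The LIPG window is chr18:49561807-49562056 on the plus strand, the LIPE window chr19:42427389-42427638 on the minus strand, and the ABHD5 window chr3:43690688-43690937 on the plus strand.
LIPG: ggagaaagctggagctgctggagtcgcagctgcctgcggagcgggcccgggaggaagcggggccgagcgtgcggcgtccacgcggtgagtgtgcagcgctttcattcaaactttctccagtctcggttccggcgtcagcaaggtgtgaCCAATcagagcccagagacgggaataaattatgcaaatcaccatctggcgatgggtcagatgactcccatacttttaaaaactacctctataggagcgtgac
LIPE: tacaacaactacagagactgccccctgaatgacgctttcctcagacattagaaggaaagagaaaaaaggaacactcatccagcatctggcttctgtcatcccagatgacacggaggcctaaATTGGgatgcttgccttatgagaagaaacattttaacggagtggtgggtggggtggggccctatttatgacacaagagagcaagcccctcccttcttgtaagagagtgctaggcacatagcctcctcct
ABHD5: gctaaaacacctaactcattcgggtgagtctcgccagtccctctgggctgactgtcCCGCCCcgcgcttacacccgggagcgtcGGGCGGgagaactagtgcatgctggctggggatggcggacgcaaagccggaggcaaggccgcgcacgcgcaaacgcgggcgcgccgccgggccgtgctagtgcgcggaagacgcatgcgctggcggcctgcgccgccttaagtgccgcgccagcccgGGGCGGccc

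Of these bases, 57.2% were G or C before LIPG, 48.8% before LIPE and 71.6% before ABHD5. In all, 7 letter patterns were searched on both strands, overlaps allowed, in the windows of the 7 genes that had one at this start (LIPG, LIPA, PNPLA2, ABHD5, LIPE, PLIN2 and PLIN3). The CCAAT box, CCAAT, stood before 4 of the 7 genes (LIPG, LIPA, LIPE and PLIN3) and in 32.01% of 35116 promoter windows of the same length. The LIPG window held 1 match and the LIPE window 1, which there reads on the opposite strand. The GC box, GGGCGG, stood before 5 of the 7 genes, with 3 matches before ABHD5 and none before LIPG or LIPE at this start, and in 42.6% of all windows. LIPA, ABHD5 and LIPE have further RefSeq starts, whose windows are not counted for these genes. The window before a further LIPE start, at 42423585, was 63.2% G or C and held 2 GC box matches and 3 CCAAT matches. The E-box CACGTG (6.34% of all windows) and the TATA box TATAAA (10.7%) were found before PLIN2 alone of the 7. This TATA box match, at position -29, reads on the strand opposite to the gene. The nuclear receptor site AGGTCA (12.1%) and the sterol response element TCACNCCAC (0.883%) were found before PNPLA2 alone, and the cyclic AMP response element TGACGTCA (1.65%) before none. These are matches of letters and say nothing about binding.

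Library totals ranged from 25996770 to 27966801 expected counts. OGT had 4737, 3489 and 3383 counts in the siControl libraries and 1079, 726 and 782 in the siOGT libraries, and its log2 fold change was -2.18. All 10 stellate cell and myofibroblast markers, such as COL1A1 and VIM, were at or above a mean of 1 CPM. Their summed level ranged from 8597 to 10031 CPM in siControl and from 8681 to 10086 CPM in siOGT, but single markers moved in both directions. The log2 fold change was -0.64 for COL3A1, -0.39 for COL1A1, -0.32 for COL1A2 and -0.32 for PDGFRB. It was 0.44 for SPARC, 0.37 for TAGLN, 0.30 for LOX and 0.25 for ACTA2, and -0.058 for VIM and -0.044 for TIMP1. Because LIPG is named after endothelium and several of the other genes are best known in fat cells, markers of other cell types were read beside them. Of 6 endothelial markers with values, 3 reached a mean of 1 CPM and their sum ranged from 71.6 to 77.2 CPM in siControl and from 77.8 to 83.1 CPM in siOGT, most of it TIE1, with a mean of 71.6 CPM. The 3 adipocyte markers with values summed to between 2.17 and 3.35 CPM in siControl and between 3.23 and 4.40 CPM in siOGT. Most of this was CIDEC, with a mean of 2.87 CPM and a log2 fold change of 0.52 that was not called. PLIN1 had one of -0.63, and ADIPOQ had at most 4 counts in a library. The 6 hepatocyte markers with values summed to between 3.55 and 4.46 CPM in siControl and between 3.60 and 3.92 CPM in siOGT, most of it SERPINA1, with a mean of 3.62 CPM. The 5 macrophage markers with values summed to between 132 and 160 CPM in siControl and between 175 and 212 CPM in siOGT, most of it CD68, a lysosomal protein, with a mean of 163 CPM. No marker with values was at 0 in all libraries, and a part of any of these in the results was not tested.

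LIPG encodes endothelial lipase, a secreted phospholipase that acts on high-density lipoproteins. The gene lies on chromosome 18 from 49560699 to 49599185 on the plus strand (GENCODE 44, hg38, as for all gene positions here), and its main transcript has 10 exons. It had 74, 90 and 52 counts in the siControl libraries and 27, 27 and 12 in the siOGT libraries, in the order of the replicate numbers. Every siOGT library was below every siControl library. In CPM, siControl averaged 2.72 ± 0.837 and siOGT averaged 0.817 ± 0.320 (SD, n = 3). The log2 fold change, from a model with the replicate number as a block, was -1.75 (SE 0.27, 95% interval -2.32 to -1.17), a level 70.2% lower in siOGT. The log2 ratios within the pairs were -1.40, -1.74 and -1.89. This was the lowest log2 fold change of the 10 genes and stood at place 4 from the lowest among 12373 genes whose mean reached 1 CPM. The counts behind it were small, so that its interval was the widest of the 10. In RNA from a whole culture, fewer cells with a transcript and less of it per cell cannot be told apart, which holds for every gene here.

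The genes whose pattern over the 6 libraries was nearest to that of LIPG were sought among 12372 others whose mean reached 1 CPM, by the root mean square difference of log2 CPM centred on each gene's own mean. COL6A3, a chain of type VI collagen, was nearest at 0.29, with 89, 109 and 102 counts in siControl and 42, 51 and 25 in siOGT. TENM1, a teneurin of the cell surface, followed at 0.40, with 471, 339 and 290 counts in siControl and 224, 170 and 122 in siOGT. APOL3 (0.40), RARRES3 (0.40) and CMKLR1 (0.41) came next, with log2 fold changes of -0.98, -1.31 and -1.07. All 5 were lower in siOGT, which follows from how they were found.

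LIPA encodes lysosomal acid lipase, which splits cholesteryl esters and triglycerides that reach the lysosome. The gene lies on chromosome 10 from 89213569 to 89414557 on the minus strand. It had 1992, 2507 and 2141 counts in siControl and 1618, 2802 and 2074 in siOGT. The groups overlapped, and the replicate 2 libraries were the highest of both. The level was 83.2 ± 13.3 CPM in siControl and 80.5 ± 22.3 CPM in siOGT, and the log2 fold change of -0.07 had an interval of -0.23 to 0.088. The pairs gave -0.31, 0.080 and 0.012, so replicate 1 alone was lower by more than the other pairs moved.

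PNPLA2, adipose triglyceride lipase, carries out the first step of triglyceride breakdown on droplets, and ABHD5 is its co-activator. PNPLA2 lies on chromosome 11 from 818914 to 825573 on the plus strand. It had 4219, 4816 and 4287 counts in siControl and 3858, 3962 and 4191 in siOGT. The groups overlapped, since the highest siOGT library, replicate 3, lay above the siControl library of the same number in CPM (156 against 154). The level was 167 ± 19.4 CPM in siControl and 149 ± 6.88 CPM in siOGT, and the log2 fold change was -0.16 (SE 0.074, interval -0.32 to -0.0056). The interval is not adjusted for the number of genes tested, and PNPLA2 was not called. ABHD5 lies on chromosome 3 from 43690108 to 43734371 on the plus strand. It had 853, 652 and 825 counts in siControl and 1039, 957 and 1026 in siOGT. Every siOGT library was above every siControl library, the one gene of the 10 of which this was true. The level was 29.0 ± 3.18 CPM in siControl and 37.4 ± 1.62 CPM in siOGT. The log2 fold change was 0.37 (SE 0.075, interval 0.21 to 0.53), with pairs at 0.27, 0.47 and 0.37. It was the highest of the 10.

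LIPE, hormone-sensitive lipase, acts after PNPLA2 on diacylglycerol and also splits cholesteryl and retinyl esters, and MGLL, monoacylglycerol lipase, completes the breakdown and also degrades the endocannabinoid 2-arachidonoylglycerol. LIPE lies on chromosome 19 from 42401514 to 42427388 on the minus strand. It had 831, 1112 and 945 counts in siControl and 536, 742 and 540 in siOGT. All 3 siOGT libraries were below all siControl libraries, the nearest being replicate 2 of siOGT. The level was 36.2 ± 6.62 CPM in siControl and 22.5 ± 4.38 CPM in siOGT. The log2 fold change was -0.69 (SE 0.076, interval -0.85 to -0.53), and the pairs lay close together at -0.65, -0.66 and -0.75. MGLL lies on chromosome 3 from 127689062 to 128052190 on the minus strand. It had 11060, 7279 and 8588 counts in siControl and 11281, 8656 and 8058 in siOGT. The groups overlapped, and the replicate 1 libraries were the highest in both. The level was 336 ± 68.4 CPM in siControl and 347 ± 62.4 CPM in siOGT, and the log2 fold change of 0.050 had an interval of -0.092 to 0.19. The interval of the LIPE log2 fold change lay below the intervals of PNPLA2 and of MGLL, but a difference between genes was not tested.

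PLIN2 and PLIN3 are droplet coat proteins, of which PLIN2 is held on droplets throughout while PLIN3 moves to them from the cytosol. PLIN2 lies on chromosome 9 from 19108375 to 19149290 on the minus strand. It had 983, 727 and 880 counts in siControl and 1442, 831 and 928 in siOGT. The groups overlapped, and replicate 1 of siOGT, at 53.4 CPM, stood above the other 5 libraries, which lay between 28.6 and 36.8 CPM. The level was 32.3 ± 4.16 CPM in siControl and 39.6 ± 12.1 CPM in siOGT. The log2 fold change was 0.27 (SE 0.086, interval 0.088 to 0.45), with pairs at 0.54, 0.11 and 0.13, and without replicate 1 it was 0.12. PLIN3 lies on chromosome 19 from 4838341 to 4867694 on the minus strand. It had 2884, 3211 and 3213 counts in siControl and 2657, 3036 and 2840 in siOGT. The groups overlapped, yet each siOGT library was below its partner by a near-equal log2 ratio, at -0.13, -0.16 and -0.12. The level was 116 ± 9.19 CPM in siControl and 106 ± 7.22 CPM in siOGT, and the log2 fold change was -0.14 (SE 0.063, interval -0.27 to -0.0056). The interval is not adjusted for the number of genes tested, and PLIN3 was not called.

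DGAT1 and DGAT2 are unrelated enzymes that catalyse the same last step of triglyceride synthesis. DGAT1 lies on chromosome 8 from 144314584 to 144326910 on the minus strand, and 10.9% of its exonic bases are shared on that strand with other gene models, so reads there may have been assigned to either. It had 701, 790 and 761 counts in siControl and 742, 818 and 789 in siOGT. The groups overlapped in full, at 28.2 ± 2.53 CPM in siControl and 29.1 ± 1.49 CPM in siOGT, and the log2 fold change of 0.049 had an interval of -0.11 to 0.21. DGAT2 lies on chromosome 11 from 75759512 to 75801535 on the plus strand. It had 378, 283 and 370 counts in siControl and 258, 217 and 263 in siOGT. All siOGT libraries were below all siControl libraries. The level was 12.8 ± 1.55 CPM in siControl and 9.14 ± 0.943 CPM in siOGT, and the log2 fold change was -0.49 (SE 0.10, interval -0.71 to -0.27), with pairs at -0.56, -0.46 and -0.43. The intervals of the 2 enzymes did not overlap, but a difference between them was not tested. Apart from DGAT1, none of the 10 genes shares exonic bases with another model on its own strand. LIPE shares 9.69% of its exonic bases with LIPE-AS1 on the opposite strand, and counting used strand.

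**Figure D1:**
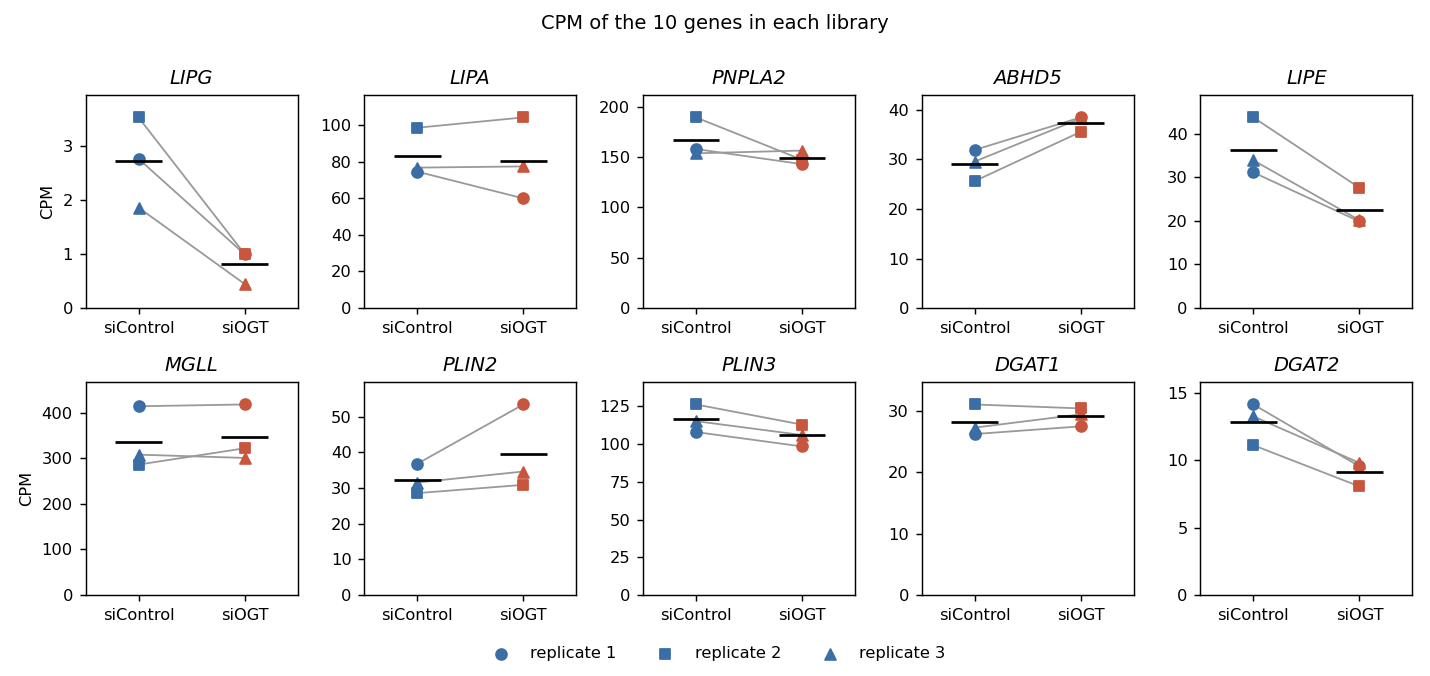
CPM of the 10 genes (vertical axis, starting at 0, 1 scale per gene) in each siControl and siOGT library, with the replicate number as the marker shape, lines joining pairs and bars at the group means. LIPG, LIPE and DGAT2 lie lower in every siOGT library than in any siControl library, ABHD5 lies higher, and the other 6 overlap.

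**Figure D2:**
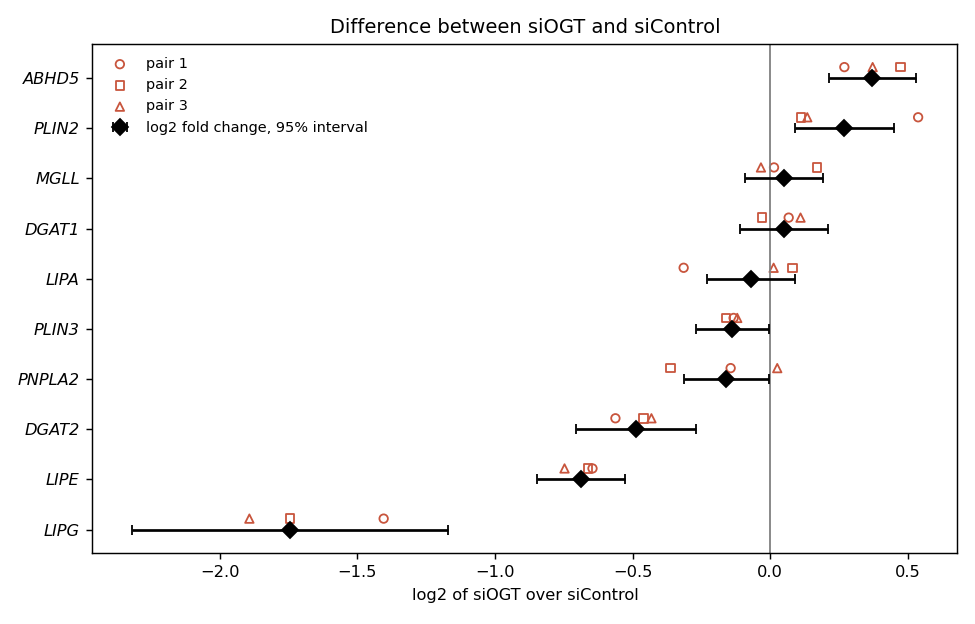
Log2 of siOGT over siControl (horizontal axis) for the 10 genes, with diamonds and bars for the log2 fold change and its 95% interval and open symbols for the 3 pairs. Values run from -1.75 for LIPG to 0.37 for ABHD5, and the PLIN2 pairs are spread between 0.11 and 0.54.

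All 10 genes passed the filter on low counts. By edgeR's quasi-likelihood test with Benjamini-Hochberg adjustment over all genes, 5 of the 10 were called, beside 25.4% of the 14853 genes tested. The 2 called higher were ABHD5 and PLIN2, beside 12.7% of all genes called higher, and the 3 called lower were LIPG, LIPE and DGAT2, beside 12.7% called lower. Without the replicate block the same test called 0 of the 10, beside 0.875% of all genes. For 4 of the 10 its unadjusted p-value did not exceed 0.05, and the share of all genes was not counted for this. DESeq2 without the block called 2, LIPG and LIPE, beside 849 of the 14853 genes tested. The CPM ranges of the groups were apart with siOGT below for 3 of the 10 genes, beside 11.8% of all genes, and with siOGT above for 1, beside 12.1%. The genes had been chosen with this contrast known, so nothing is read from these counts. The median log2 fold change was -0.10 over the 10 genes and 0.0068 over all genes tested. In 6 of the 10 genes all 3 pairs had the same sign, 4 of them lower in siOGT (LIPG, LIPE, DGAT2 and PLIN3) and 2 higher (ABHD5 and PLIN2). The share of all genes with 3 pairs of the same sign was not counted, so nothing is read from this either.

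The 10 genes also differed widely in level. In CPM per kilobase of the main transcript, MGLL had the highest level in siControl, at 78.6 ± 16.0, followed by PNPLA2 at 69.1 ± 8.05, PLIN3 at 52.1 ± 4.12 and LIPA at 33.3 ± 5.31. Below these were PLIN2 at 17.02 ± 2.19, LIPE at 9.61 ± 1.76, DGAT1 at 7.71 ± 0.693, ABHD5 at 5.48 ± 0.60 and DGAT2 at 5.33 ± 0.646, and LIPG was last at 0.261 ± 0.0804, 301-fold below MGLL. In siControl the ranges of 3 neighbouring pairs in this order overlapped over the libraries, namely MGLL with PNPLA2, LIPE with DGAT1, and ABHD5 with DGAT2. In siOGT the order was the same but for 3 genes, since LIPE (5.98 ± 1.16) came after DGAT1 (7.97 ± 0.408) and ABHD5 (7.06 ± 0.307). The order depended on the length used, and with all exons of a gene merged PNPLA2 came first at 43.6, before PLIN3 at 42.5 and MGLL at 29.7, while LIPG was last at 0.208, 143-fold below MGLL.

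**Figure D3:**
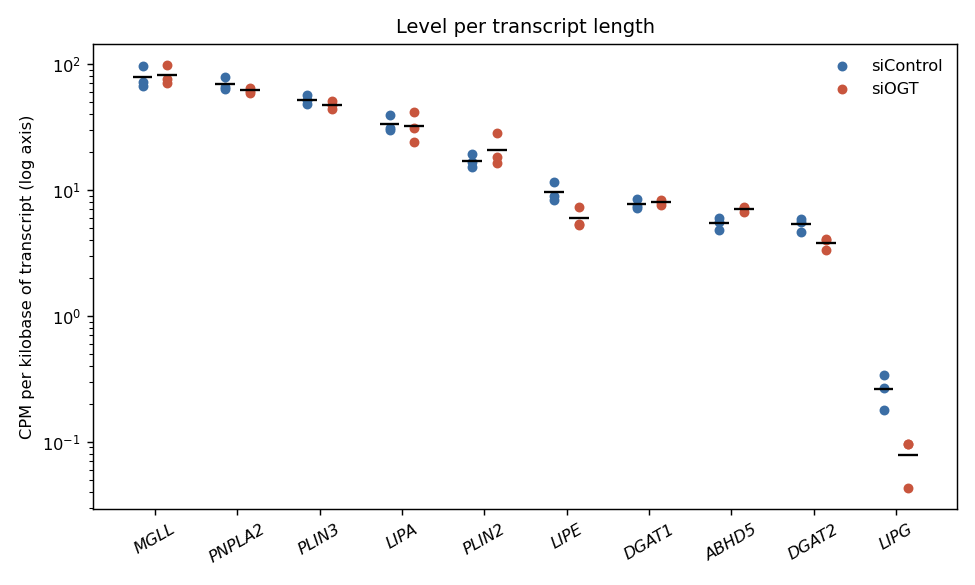
CPM per kilobase of main transcript (log axis) of the 10 genes, ordered by the siControl mean, with points for the 6 libraries and bars for the group means. LIPG lies far below the other genes in both groups, and LIPE lies below DGAT1 and ABHD5 in siOGT.

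Ratios of the levels per length within a library set functional partners side by side. ABHD5 to PNPLA2, the co-activator to its lipase, was 0.0922, 0.0617 and 0.0878 in the siControl libraries and 0.123, 0.110 and 0.112 in the siOGT libraries. The ratio was higher in every siOGT library, with the siOGT mean at 143% of the siControl mean. LIPE to PNPLA2, the second lipase to the first, was 0.126, 0.148 and 0.141 in siControl and 0.0891, 0.120 and 0.0826 in siOGT. It was below every siControl library in each siOGT library, with a mean at 70.2% of the siControl mean. DGAT2 to DGAT1 was 0.818, 0.544 and 0.738 in siControl and 0.528, 0.403 and 0.506 in siOGT, again without overlap, at 68.4%. LIPG to LIPA, the secreted to the lysosomal lipase, was 0.00777 ± 0.00170 in siControl and 0.00256 ± 0.00132 in siOGT, at 33.0% and without overlap. PLIN2 to PLIN3 was 0.401, 0.266 and 0.322 in siControl and 0.639, 0.322 and 0.384 in siOGT. This ratio was higher in siOGT in all 3 pairs, but the groups overlapped. All these ratios follow from the levels of the single genes, which had been chosen with this contrast known. How often the ratios of other gene pairs lay apart was not counted, so nothing is read from the separation.

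How much of the spread of each gene went with the treatment and how much with the replicate number was read from the variance of log2 CPM over the 6 libraries. For LIPG, ABHD5, DGAT2 and LIPE, the group took 78.8%, 77.6%, 76.2% and 72.1% of it. For MGLL, LIPA, DGAT1, PLIN2 and PLIN3, the replicate number took 94.8%, 87.5%, 81.4%, 69.1% and 60.6%. PNPLA2 had the largest share that went with neither, at 37.4%. Over the 10 genes the median was 38.5% for the group and 44.1% for the replicate number, beside medians of 27.1% and 48.6% over all genes whose mean reached 1 CPM. Since the 10 genes had been chosen with this contrast known, nothing is read from the difference between these medians.

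**Figure D4:**
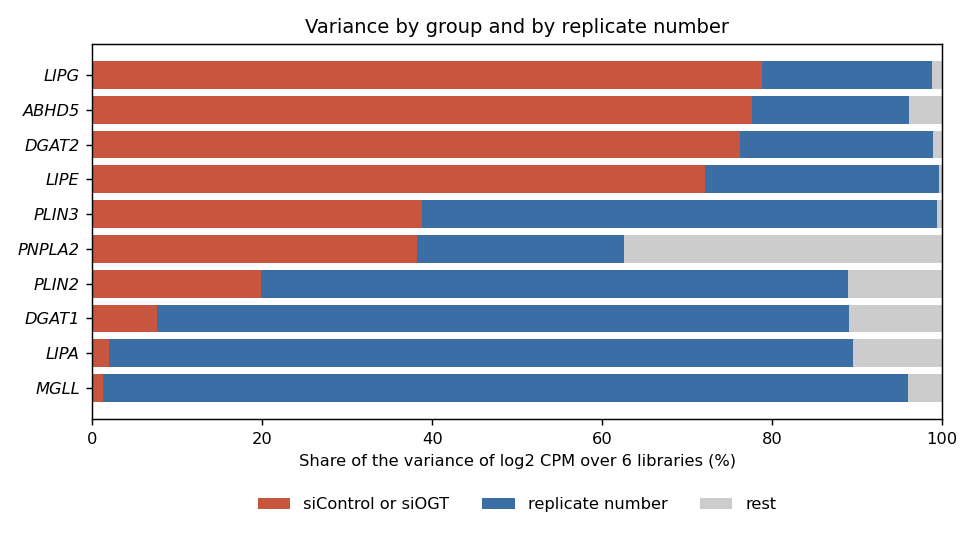
Share of the variance of log2 CPM over 6 libraries (horizontal axis, in percent) taken by the group, by the replicate number and by the rest, for each of the 10 genes. Red bars are long for LIPG, ABHD5, DGAT2 and LIPE, and the blue bar fills 94.8% for MGLL.

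Other genes of lipid storage and use were read in 6 lists that held none of the 10. Of 161 genes listed, 144 had values, 130 were tested and 39 were called by the same edgeR test, 16 higher and 23 lower in siOGT. That is 30% of those tested, close to the 25.4% of all genes. The counts of single lists below stand beside the same 25.4%, and nothing is read from a single list. Without replicate 1, 21 were called. Without the replicate block edgeR called 0, beside 0.875% of all genes, although for 32 the unadjusted p-value did not exceed 0.05. DESeq2 without the block called 6, beside 849 of the 14853 genes tested. The share of all genes was not counted for the fits that left out a replicate or for unadjusted p-values. The median log2 fold change of the 130 genes was -0.04. All adjusted p-values that follow are those of edgeR's quasi-likelihood test with Benjamini-Hochberg adjustment and the block.

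Among secreted lipases and their regulators, to which LIPG belongs by function, 4 of 11 tested genes were called, 3 of them lower. LIPC, hepatic lipase and the nearest relative of LIPG in this list together with LPL, fell from 4.54 ± 0.560 to 2.79 ± 0.816 CPM, by 0.72 on the log2 scale (SE 0.18, adjusted p = 0.0064). SCARB1, the receptor for high-density lipoproteins, had a log2 fold change of -0.31 (adjusted p = 0.0021). LMF2, a lipase maturation factor family member, had one of -0.26 (adjusted p = 0.0070). SEL1L, which helps lipases leave the endoplasmic reticulum, rose by 0.27 (adjusted p = 0.0054). FURIN, a protease that cleaves endothelial lipase, was the most abundant gene not called, at 0.040 (adjusted p = 0.71). Without replicate 1 the list had 1 call, and LIPC (adjusted p = 0.052), SCARB1 (0.060) and LMF2 (0.059) were no longer called by edgeR.

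Among intracellular lipases and their cofactors, the list of PNPLA2 and LIPE by function, 4 of 17 were called. DAGLB, a diacylglycerol lipase, rose by 0.41 on the log2 scale (adjusted p = 0.00028), and PNPLA4 by 0.40 (adjusted p = 0.0105). PNPLA1, at 0.732 CPM in siControl and 1.55 in siOGT, rose by 1.10 (adjusted p = 0.017). DDHD2, a triglyceride and phospholipid lipase, had a log2 fold change of -0.37 (adjusted p = 0.00081). ABHD4 was the most abundant gene not called, at 0.017 (adjusted p = 0.88). DESeq2 with the block called 2 genes of the list and neither PNPLA1 (adjusted p = 0.090) nor PNPLA4 (0.080), and edgeR without replicate 2 also called 2 and neither of these (0.059 and 0.071). Without replicate 1 edgeR did not call PNPLA1 (0.12).

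Among droplet coat and biogenesis proteins, 8 of 22 were called, 4 in each direction. METTL7A, a membrane protein found on droplets, had 390, 759 and 356 counts in siControl and 128, 318 and 201 in siOGT, and its log2 fold change was -1.24 (SE 0.13, adjusted p = 4.3e-06). METTL7B, its paralog, had 88, 176 and 149 counts in siControl and 21, 80 and 72 in siOGT, and its log2 fold change was -1.33 (SE 0.20, adjusted p = 0.00016). Every siOGT library was below every siControl library for both. HSD17B11, a droplet dehydrogenase, fell by 0.37 (adjusted p = 0.0029), and RAB7A, a late endosome GTPase, rose by 0.40 (adjusted p = 0.0039, 0.14 by DESeq2 with the block). BSCL2 (seipin, which shapes growing droplets), AUP1 and LDAH, named after their values were seen, rose by 0.30, 0.33 and 0.35. FAF2 was the most abundant gene not called, at -0.08 (adjusted p = 0.41).

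In glycerolipid and steryl ester synthesis, the list of the DGAT enzymes by function, 4 of 26 were called, all lower. These were LPIN3 (-0.38, adjusted p = 0.0042) and LPIN2 (-0.29, adjusted p = 0.0046), phosphatases that make diacylglycerol, ACSL3 (-0.37, adjusted p = 0.00043), an acyl-CoA synthetase of droplets, and LPCAT1 (-0.22, adjusted p = 0.019). AGPAT3 was the most abundant gene not called, at -0.11 (adjusted p = 0.24). In fatty acid uptake and oxidation, 8 of 32 were called, 7 of them lower. ACACB, whose product malonyl-CoA inhibits fatty acid entry into mitochondria, had a log2 fold change of -0.58 (SE 0.084, adjusted p = 8.9e-05). ACADS (-0.52, adjusted p = 0.0018), a dehydrogenase of short acyl-CoA, and SLC27A1 (-0.49, adjusted p = 0.0021), a fatty acid transporter, were also lower. CPT1B, the muscle form of carnitine palmitoyltransferase 1, was the gene called higher (0.41, adjusted p = 0.021), and SLC27A4 the most abundant gene not called, at 0.0056 (adjusted p = 0.96). CPT1B was called neither by DESeq2 with the block (adjusted p = 0.089) nor by edgeR without replicate 3 (0.26), and LPCAT1 was not called by edgeR without replicate 1 (0.21) or 2 (0.063). Without replicate 1 the uptake and oxidation list had 4 calls.

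Among transcriptional regulators of lipid storage, 11 of 22 were called, 7 of them higher, beside 25.4% of all genes called in either direction. Without replicate 1, 4 were called. KLF15 rose from 3.88 ± 0.809 to 8.30 ± 1.58 CPM, by 1.10 on the log2 scale (SE 0.14, adjusted p = 2.8e-05). SREBF1, which drives fatty acid synthesis genes, had a log2 fold change of -0.69 (SE 0.073, adjusted p = 5.2e-06), and INSIG1, which holds its precursor in the endoplasmic reticulum, one of -0.61 (SE 0.068, adjusted p = 9.1e-06). Both were lower in all 3 pairs, although their CPM ranges overlapped between the groups. PPARGC1A rose by 0.55 (adjusted p = 0.049), with pairs at 0.86, -0.03 and 0.67, and lost its call in DESeq2 with the block (0.22) and in edgeR without replicate 1 (0.44) or replicate 3 (0.17). PPARD was the most abundant gene not called, at -0.10 (adjusted p = 0.28).

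**Figure D5:**
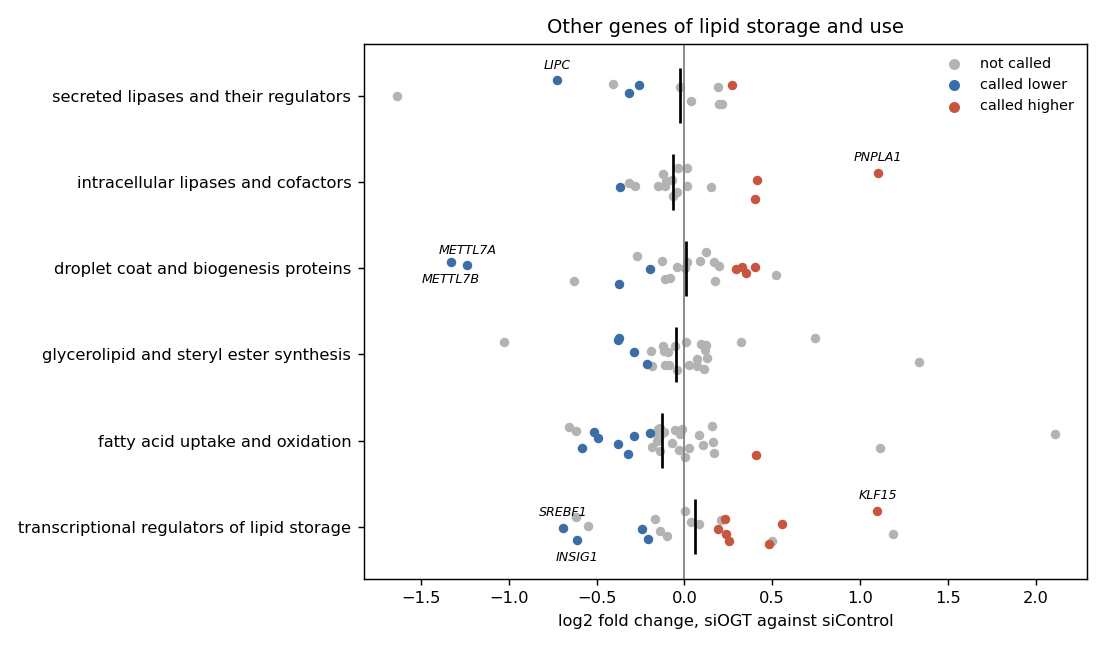
Log2 fold change (horizontal axis) of the 130 tested genes in the 6 lists, with a point per gene, blue and red for genes called lower and higher, grey for the others and a black bar at the median of a list. METTL7A, METTL7B, LIPC, SREBF1 and INSIG1 are called lower and PNPLA1 and KLF15 higher, and the list medians lie between -0.13 and 0.059.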

How the data were processed

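The data were RNA-seq libraries of LX-2 cells, 3 siControl and 3 siOGT. Per the study's methods and processing notes, the authors enriched polyadenylated RNA, aligned paired reads to hg38 with Bowtie2 2.3.5.1 and counted per gene with RSEM 1.3.1 by strand. The deposited values are RSEM expected counts, not normalized, in which the authors' counting divides reads shared by genes. Their own comparison table, made with DESeq2 1.36.0, holds a mean signal, log2 fold changes and p-values and was not used.

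Expected counts were rounded, and 14853 genes passed a filter at a total of 10. After TMM scaling, edgeR 4.0.16 (R 4.3.3) tested each gene with its two-sided quasi-likelihood method, with the replicate number as a block, as the study's methods pair samples. Same-numbered libraries correlated by 0.69, 0.53 and 0.33 in their deviations from the group means across 12373 genes, which are not independent replicates. P-values were adjusted over all genes by Benjamini-Hochberg, and a gene is called at an adjusted p of at most 0.05. Errors given with ± are SD of the 3 libraries of a group, and pair ratios use a prior count of 2. SE and intervals of fold changes come from the F statistic, and the intervals are per gene and not adjusted over all genes. The scripts were tested on simulated data.

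The 10 genes and the lists were chosen with earlier results of these data known. Named from each list were up to 4 called genes of at least 1 CPM with the largest absolute log2 fold change and the most abundant gene not called, besides the 5 genes nearest to LIPG. Main transcript lengths are from GENCODE 44. Alternatives were other scalings, filters, DESeq2 1.42.0, no block and leaving out each replicate.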

Additional observations from a re-analysis of the deposited data

How the results depend on the processing

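The log2 fold changes of the 5 genes called among the 10 kept their sign under every alternative tried, and that of LIPG lay between -1.91 and -1.65 on the log2 scale. Without the replicate block, edgeR called 0 of the 10 and 0 of the list genes (0 higher, 0 lower), beside 0.875% of all genes. DESeq2 without it called 2 of the 10 (LIPG and LIPE) and 6 list genes, 2 higher and 4 lower, beside 849 of all 14853 genes. The common dispersion was 0.0045 with the block and 0.019 without it. DESeq2 with the block called 4 of the 10 (PLIN2 was lost) and 30 list genes, 9 higher and 21 lower. This was beside 2415 of all 14853 genes.

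Leaving out 1 replicate gave 21 to 38 list genes called, 9 to 16 of them higher and 12 to 23 lower, with the fewest, 21, without replicate 1. PLIN2 was no longer called without replicate 1, and PNPLA2 was called without replicate 3, so that 4 to 6 of the 10 were called. The share of all genes called was not counted for these fits. Signs turned when a replicate was left out for LIPA (-0.15 to 0.045), MGLL (-0.012 to 0.085), FURIN (-0.014 to 0.068), ABHD4 (-0.064 to 0.056) and SLC27A4 (-0.018 to 0.038), none of them called. With merged exon lengths 4 of the 10 genes kept their place in the order of levels, and 8 to 10 kept it when a replicate was left out. PPARGC1A was not called under median-ratio size factors or the stricter expression filter. The causes of these differences were not tested. LIPG rested on 12 to 90 counts per library, which limits its fold change.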

Other observations

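Some genes of the lists that were not called were named after their values were seen. APOC1, an apolipoprotein that inhibits lipase action, had 16, 9 and 9 counts in siControl and 3, 1 and 7 in siOGT. GPAT3, an enzyme of the first step of triglyceride synthesis, had 4, 8 and 6 counts in siControl and 5, 25 and 19 in siOGT. In CPM the groups were apart for APOC1, beside 11.8% of all genes with siOGT below, and overlapped for GPAT3. Both rest on few counts, and the adjusted p was 0.11 for APOC1 and 0.10 for GPAT3 by edgeR's quasi-likelihood test with the block. CIDEC, a droplet fusion protein, had 47, 75 and 67 counts in siControl and 88, 81 and 103 in siOGT, and its log2 fold change was 0.52 (adjusted p = 0.082 by edgeR's quasi-likelihood test with the block). HILPDA, an inhibitor of PNPLA2, had 262, 189 and 222 counts in siControl and 196, 163 and 183 in siOGT, with a log2 fold change of -0.32 (adjusted p = 0.062 by the same edgeR test). In CPM the groups were also apart for CIDEC, with siOGT above (12.1% of all genes), and for HILPDA, with siOGT below.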
